A study of Mus musculus with 12 samples.

Results

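The genotype by retinoic acid interaction is, for each gene, the change with retinoic acid (RA) in Oct4 C48S mouse embryonic stem cells minus the change in wild-type (WT) cells, on the log2 scale. It draws on all 12 of the 12 libraries, in 4 groups of 3 formed from the genotype and state in the titles. Both lines are Bl/6J embryonic stem cells. WT cells carry unaltered Oct4, and the C48S cells are clone 46, in which the cysteine of Oct4 named in the allele is replaced by serine. The protocol describes the lines as parental and derived. The undifferentiated groups (WT and C48S) were grown with the MEK inhibitor PD at 1 µM, the GSK3 inhibitor CHIR at 3 µM and ascorbic acid. The differentiated groups (WT and C48S) were given RA at 1.5 mg/L for 2 days in medium without the self-renewal cytokine LIF. Whether inhibitors and ascorbic acid stayed in the medium with RA is not stated, so the RA change includes any change of medium. The C48S cells are a single clone, so the mutation and other properties of that clone cannot be told apart. The titles and the protocol give day 2 for every RA library, whereas the treatment field gives days 2, 3 and 4 for WT and 5, 6 and 7 for C48S. If that field were right, day and genotype could not be told apart after RA. Whether the libraries of a group are separate cultures is not stated, and p-values then measure a spread between these libraries that may be technical.

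Oct4, the product of Pou5f1, is a POU-domain transcription factor that holds embryonic stem cells in the pluripotent state together with Sox2 and Nanog, and it binds octamer sequences and composite SOX-OCT sites. Retinoic acid enters the nucleus and binds RAR-RXR receptor pairs at direct repeat elements, which switches on Hox genes and the enzymes that degrade RA. In stem cells deprived of LIF it drives exit from pluripotency, during which the naive network is shut off and lineage genes are switched on. An interaction can arise from the level before RA (the start), from the level after RA (the end) or from both, since it equals the end difference between the lines minus the start difference.

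The promoters of 3 genes described below are shown because their windows hold a match to a motif of Oct4 and because they stand for 3 kinds of interaction. Nanog fell less in C48S, Cdx2 fell in WT and rose in C48S, and Dll1 rose in WT alone. Each line gives the 250 bases before a RefSeq start site on GRCm38.p6, read 5′ to 3′ along the gene, with the match in capitals.
Nanog, chr6:122707315-122707564, plus strand, SOX-OCT composite on the reverse strand with its first base at -151: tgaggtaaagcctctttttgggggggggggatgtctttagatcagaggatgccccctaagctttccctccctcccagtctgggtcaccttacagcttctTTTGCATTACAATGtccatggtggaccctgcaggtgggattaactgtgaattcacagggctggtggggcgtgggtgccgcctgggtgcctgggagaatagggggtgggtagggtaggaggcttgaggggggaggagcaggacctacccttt
Cdx2, chr5:147307250-147307499, minus strand, octamer with its first base at -147: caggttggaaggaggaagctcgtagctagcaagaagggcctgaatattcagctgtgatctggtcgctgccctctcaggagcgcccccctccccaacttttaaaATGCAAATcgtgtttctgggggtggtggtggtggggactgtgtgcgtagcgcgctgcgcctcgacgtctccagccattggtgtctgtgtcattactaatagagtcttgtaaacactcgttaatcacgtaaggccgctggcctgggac
Dll1, chr17:15375824-15376073, minus strand, octamer on the reverse strand with its first base at -219: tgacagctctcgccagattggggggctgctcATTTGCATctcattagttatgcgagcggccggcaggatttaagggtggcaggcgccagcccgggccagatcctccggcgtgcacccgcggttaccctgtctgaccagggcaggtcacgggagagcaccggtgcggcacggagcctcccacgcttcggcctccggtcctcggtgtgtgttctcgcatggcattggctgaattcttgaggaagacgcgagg
Windows of 300 bases (250 before and 50 after the start site) were matched by symbol for 12086 of the 17940 genes tested. The octamer ATGCAAAT was searched on both strands and was in the windows of 198 genes (1.64%). The SOX-OCT composite overlaps the octamer's letters only in part and was in the windows of 2 genes (0.0165%). Direct repeats of RAR half-sites spaced by 5 bases (DR5) were in 8 genes and those spaced by 2 bases (DR2) in 15. By response class, the octamer share was lowest in genes that fell in C48S alone (1 of 298, 0.336%). It was highest in those that fell in WT and rose in C48S (10 of 305, 3.28%), beside 1.57% of genes with no called interaction. Both extremes rest on few genes. These shares are descriptions, and a match is not evidence of binding.

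Genes were tested across the whole table with edgeR's quasi-likelihood test and counted as called where the p, adjusted by Benjamini and Hochberg, was under 0.05. Library totals ran from 8678088 to 13597098 counts. Of 17940 genes tested, 7071 were called for the interaction (39.4%). The value was higher in C48S for 3990 (22.2%) and lower for 3081 (17.2%), and 2523 of the called genes differed by at least 2-fold. The median over all genes tested was 0.02, and it was -0.00065 with another scaling (RLE), under which 53.7% of calls were higher in place of 56.4%. C48S undifferentiated replicate 3 stood apart from its group, its counts differing from replicates 1 and 2 by a chi-square of 9.88 and 9.66 per degree of freedom, while no other pair exceeded 2.26. Without it, 7771 genes were called (4367 higher and 3404 lower). In these bulk samples, fewer cells of a type and less RNA per cell cannot be told apart.

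The largest class held changes that both lines made in the same direction but that were smaller in C48S. Such weaker changes numbered 3184, or 45% of the called genes, with 1379 rises and 1805 falls. Stronger changes in C48S numbered 929 (616 rises and 313 falls). In 682 genes the direction was reversed, of which 413 fell in WT and rose in C48S and 269 did the converse. A further 1366 genes changed in WT with no called change in C48S (711 rises and 655 falls), and 877 changed in C48S alone (487 rises and 390 falls). In 33 genes neither line's change was called. For reference, RA changed 78.3% of all genes tested in WT (40.9% rose and 37.4% fell) and 73.6% in C48S (39% rose and 34.6% fell).

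**Figure D1:**
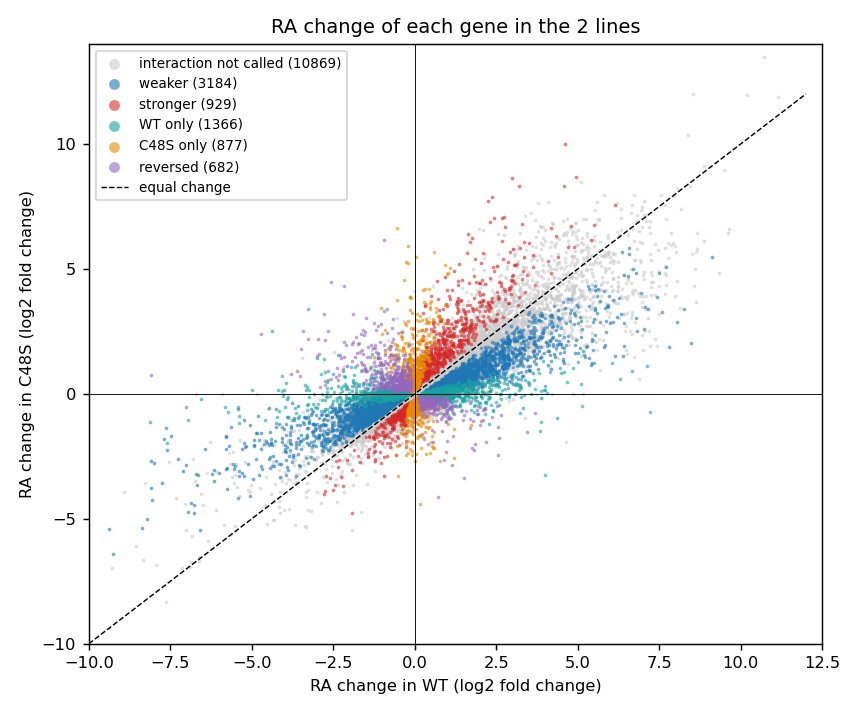
Each point is a gene tested, with its RA change in WT on the x axis and in C48S on the y axis, both as log2 fold changes, coloured by response class (33 genes of no class are left out). The 3184 weaker changes lie between the dashed line of equal change and the x axis, and the 929 stronger ones between that line and the y axis.

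The changes seen in WT alone were mostly under 2-fold. The median WT change was 0.83 for the rises and -0.81 for the falls, and the median change in C48S was 0.011 for both in size. A change was taken as absent in C48S where its 95% interval lay within 1.5-fold either way, and 965 of the 1366 met this (492 rises and 473 falls). In WT, 302 of the 711 rises and 253 of the 655 falls were at least 2-fold. Only 106 of those rises and 96 of those falls met the rule for absence, so most were not shown to be absent in C48S. In the weaker class the median change was 1.86 in WT and 0.92 in C48S for rises, and -1.26 and -0.66 for falls.

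The level at which the lines differed was the start more often than the end. Among the 7071 called genes, the larger of the differences lay at the start for 4377 (61.9%) and at the end for 2694 (38.1%). The lines differed at the start alone in 2218 genes (31.4%) and at the end alone in 1504 (21.3%), while 1920 (27.2%) differed the same way at both. In 1300 genes (18.4%) the lines crossed over, of which 842 were lower in C48S before RA and higher after it, and 458 the converse. As a background, 55.6% of all genes tested differed between the lines before RA (27.5% higher in C48S and 28.1% lower) and 54.5% after it (28.8% higher and 25.7% lower). Without chromosomes 6, 8, 11 and Y, on which the lines differed in both states, 5703 genes were called. Of these, 1214 differed the same way at both times.

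**Figure D2:**
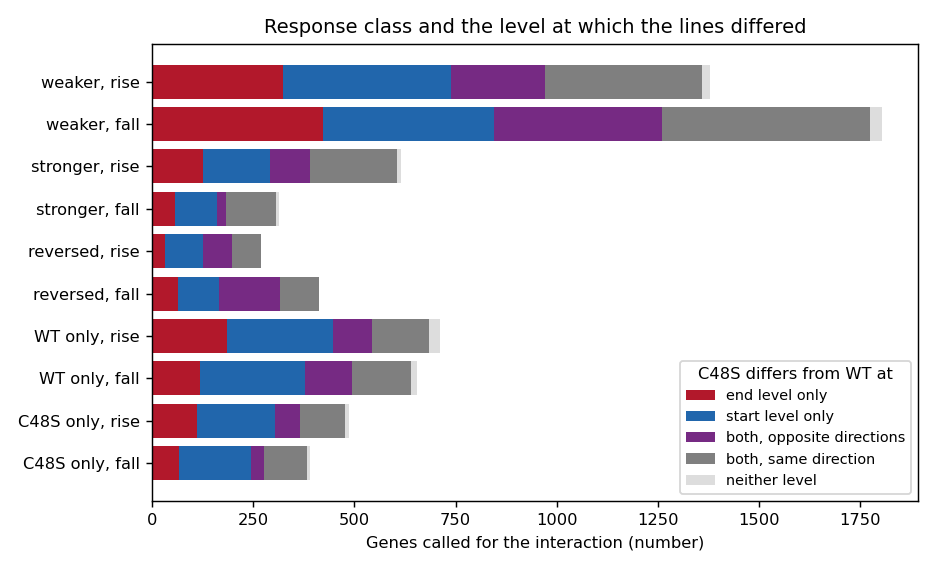
Bars count the genes called for the interaction in each response class, split by whether C48S differed from WT at the start, at the end, at both or at neither, and rise or fall is the direction in WT (in C48S for the C48S only class). Among weaker falls 53.1% had the larger difference at the end, and among weaker rises 32.8%.

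Weaker falls were the exception. The larger difference lay at the end in 53.1% of the 1805 weaker falls, in 32.8% of the weaker rises and in 26.4% to 36.3% of every other class with a direction. The shortfall grew with the size of the fall. Among genes whose mean change in the lines was a fall of at least 1 (log2), the median interaction signed by that direction was -0.47, where a negative value is a smaller change in C48S, and 79.4% of 2042 genes fell less. In the 100 genes with a mean fall of at least 4, the median WT change was -6.31 and the median C48S change -3.87. All 45 of these genes with a called interaction fell less in C48S. Rises of at least 1 were smaller in C48S in 61.5% of 4596 genes, with medians of 2.23 in WT and 1.95 in C48S.

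The genes of the naive pluripotency network were among those that fell less. Of 16 tested, 13 were called higher in the interaction (81.2%, against 22.2% of all genes in that direction) and 0 lower in edgeR (also 0 at an unadjusted p under 0.05 and in DESeq2). Every list is given against the 39.4% of all genes called, and without C48S undifferentiated replicate 3 the counts of the naive list were 14 and 0. Of the 13, 12 were weaker falls and Gbx2, a homeobox gene of the naive state, was reversed. The median RA change was -4.14 in WT and -3.08 in C48S. For 12 of the 13 the larger difference between the lines lay after RA.

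Nanog (ENSMUSG00000012396, chromosome 6, 122684448 to 122691592 on GRCm39), a homeodomain factor of the pluripotent core, was at 1079, 1085 and 1044 CPM (counts scaled to library size) in the WT undifferentiated libraries and at 857, 861 and 856 CPM in those of C48S. With RA the WT libraries stood at 16.4, 15.9 and 17.6 CPM and the C48S libraries at 94.4, 95.02 and 93.3 CPM. The C48S libraries were thus all below WT at the start and all above WT at the end. Its log2 change was -6.01 ± 0.059 (SE) in WT and -3.19 ± 0.048 in C48S, an interaction of 2.82 ± 0.075 (adjusted p = 2.18e-25).

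Sox2, the partner of Oct4 on composite sites, crossed over in the same way. It began at 430.3, 438.7 and 421.9 CPM in the WT libraries and 355.2, 342.9 and 366.2 CPM in the C48S libraries. Its levels at the end were 15.8, 13.1 and 13.8 CPM for WT against 87.2, 77.8 and 82.3 CPM for C48S. The groups did not overlap in either state, and the interaction was 2.82 ± 0.087 (adjusted p = 6.37e-24).

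Pou5f1 (ENSMUSG00000024406, chromosome 17, 35816915 to 35821669 on GRCm39) differed between the lines at the end alone with all libraries fitted. It had undifferentiated levels of 587, 579 and 589 CPM for WT against 512, 505 and 653 CPM for C48S, so the groups overlapped in range through replicate 3. By day 2 the readings were 24.1, 22.0 and 22.8 CPM (WT) and 71.5, 68.3 and 65.1 CPM (C48S). Its fall was -4.67 in WT and -3.03 in C48S (interaction 1.65 ± 0.12, adjusted p = 2.12e-09). The transcript level says nothing about a point mutation and is no check of the genotype.

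**Figure D3:**
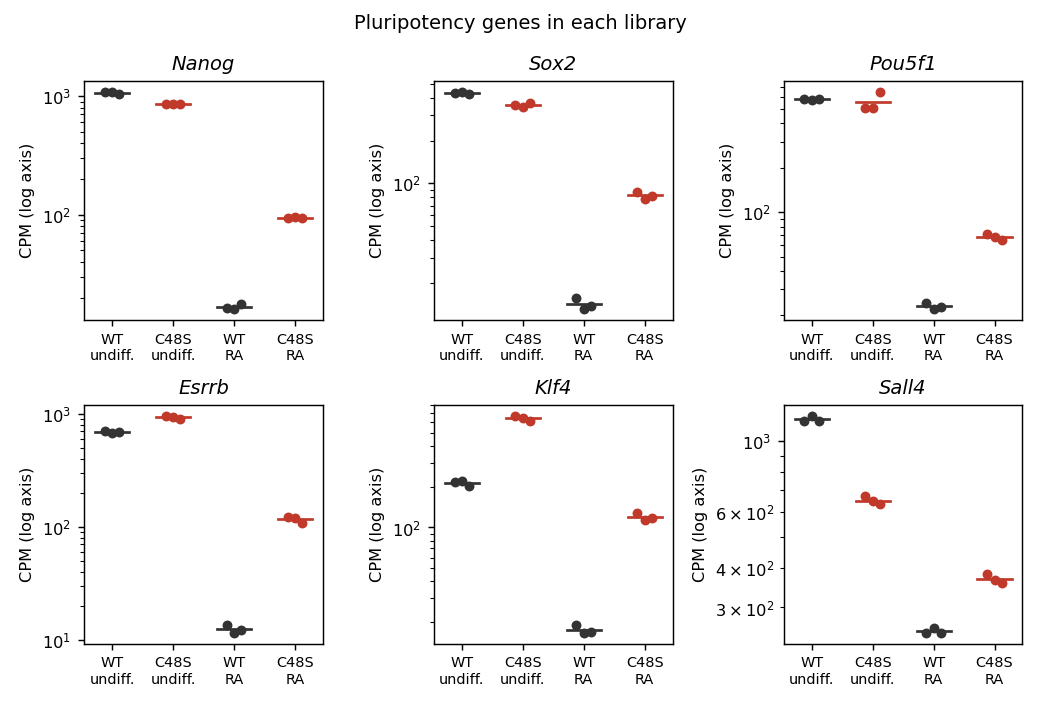
CPM of 6 pluripotency genes in each of the 12 libraries on a log axis, with points for libraries and lines for group means. After RA all C48S libraries lie above all WT libraries for each gene, for example 93.3 to 95.02 against 15.9 to 17.6 CPM for Nanog.

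For other naive genes C48S started higher. Esrrb, a nuclear receptor, went from a mean of 685 to one of 12.4 CPM in WT and from 932 to 116 CPM in C48S, and its interaction was 2.78 ± 0.086 (adjusted p = 6.37e-24). Klf4, a reprogramming factor, started from 217, 218 and 201 CPM (WT) and 668, 640 and 611 CPM (C48S). The RA libraries held 18.96, 16.7 and 16.99 CPM (WT) and 128, 113 and 118 CPM (C48S). It fell by 3.60 in WT and by 2.42 in C48S. Tdh, the threonine dehydrogenase of mouse stem cells, fell by 9.25 in WT and by 6.40 in C48S. For these 3 genes the scale decides the direction: the difference of differences in CPM (C48S minus WT) was -143.9 for Esrrb, -325.6 for Klf4 and -185.8 for Tdh, a larger loss in C48S.

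The general pluripotency genes followed, with 12 of 15 called higher and Lin28a called lower (86.7% called against 39.4% of all genes). Medians were -2.55 in WT and -1.71 in C48S. Sall4, a zinc finger factor of the core network, had mean levels of 1173 and 650.5 CPM before and 253 and 370 CPM after RA in WT and C48S, and fell by 2.21 and by 0.82. Lin28a, an inhibitor of let-7 maturation, started lower in WT, and the end difference of 0.09 was not called: it rose from 50.2 to 170.1 CPM in WT and from 160 to 182 CPM in C48S.

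Genes of the formative and primed states had, of the lists, the widest gap between the lines in their median RA change, which was -1.29 in WT and 0.81 in C48S over 9 tested genes, 7 of them called higher and 1 lower. Dnmt3a, a de novo DNA methyltransferase, began at 250, 257 and 258 CPM in the WT libraries and 53.5, 47.0 and 51.4 CPM in the C48S libraries. Its levels at the end were 105, 105 and 103 CPM for WT against 180, 182 and 178 CPM for C48S. Neither pair of groups overlapped and the order of the lines turned over. The change was -1.29 in WT and 1.83 in C48S (interaction 3.12 ± 0.074, adjusted p = 1.2e-26). Grhl2, a grainyhead factor of epithelial cells, was also reversed (-0.73 in WT and 1.92 in C48S). Dnmt3b and Zic2 were weaker falls, with interactions of 1.14 and 1.70. Pou3f1, a POU factor of the epiblast, rose by 0.81 in C48S, while its WT change of -0.35 was not called.

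Among the 10 DNA methylation and TET genes, 5 were called. Those called lower were Dnmt3l, a cofactor of the de novo enzymes, which rose by 0.42 in WT and fell by 0.47 in C48S, and Tdg, a thymine glycosylase, with -0.22 and -0.56. Tet3 rose more in C48S, by 1.72 against 1.31. Tet1, with -2.39 in WT and -2.43 in C48S, and Uhrf1, with -1.21 and -1.18, had interactions of -0.04 and 0.03 that did not pass the test. Without C48S undifferentiated replicate 3 the list held 8 calls (4 in each direction), with Tet1 at -0.16, Tet2 at 0.22 and Dnmt1 at -0.17 added.

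The retinoid genes had a median RA change of 3.28 in WT and 3.05 in C48S, and 16 of 22 were called for the interaction, 6 higher and 10 lower. Rarg, a retinoic acid receptor, differed little at the start. It started from 172 to 176 CPM (WT) and 164 to 175 CPM (C48S). The RA libraries held 52.0 to 53.5 CPM (WT) and 145 to 153 CPM (C48S), so it fell by 1.72 in WT and by 0.18 in C48S (interaction 1.54 ± 0.072, adjusted p = 9.39e-19). Tshz1, a zinc finger factor, rose by 2.86 in WT and by 1.75 in C48S. Cyp26a1, which breaks down RA, had 3 and 4 counts summed over the WT and C48S groups before RA and means of 246 and 536 CPM after it, and its interaction was not called.

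Of 39 Hox genes tested, 9 were called higher and 2 lower, which is 28.2% called against 39.4% of all genes, and 22.2% of all genes were called higher. The 9 were stronger rises, but 3 of them (Hoxa11, Hoxa13 and Hoxd4) had a group under 10 counts, and passed the filter through groups after RA (Hoxa11 through C48S alone). The median change was 3.26 in WT and 4.16 in C48S. Hoxa9 stood at 0.94, 1.51 and 1.52 CPM (WT) and 2.12, 2.77 and 1.45 CPM (C48S) in undifferentiated cells. With RA the WT libraries stood at 8.71, 9.61 and 9.38 CPM and the C48S libraries at 217, 220 and 218 CPM. The start groups overlapped in range and the end groups did not. The rise was 2.78 in WT and 6.69 in C48S (interaction 3.90 ± 0.32, adjusted p = 2.08e-12). Its neighbour Hoxa10 rose by 2.08 and by 5.63, from 28 and 39 counts summed over the WT and C48S groups to 123 and 2299. Hoxd9 rose by 2.31 and by 4.65. Hoxd13 was a weaker rise (3.54 and 1.12), with a higher start in C48S. A group under 10 counts was present for 12 of the 39 in all, which limits what was detectable in these. Hoxa11 went from 3 to 12 counts in WT and from 7 to 359 in C48S.

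The caudal factors Cdx2 and Cdx1, of a family that activates posterior Hox genes in the embryo, were called higher in the interaction. A link between them and the Hox changes was not tested. Cdx2, also the master regulator of trophectoderm, began at 6.61, 5.29 and 5.21 CPM in the WT libraries and 0.51, 0.85 and 0.21 CPM in the C48S libraries. Its levels at the end were 1.87, 3.26 and 3.71 CPM for WT against 40.3, 39.2 and 35.0 CPM for C48S. Groups did not overlap in either state. It fell in WT by 0.93 ± 0.21, rose in C48S by 6.17 ± 0.22, and its interaction of 7.10 ± 0.33 (adjusted p = 1.12e-18) was the largest among the genes chosen by class. The C48S start rests on 16 counts over 3 libraries. Cdx1 rose from 31.2 to 91.7 CPM in WT and from 47.7 to 343 CPM in C48S (1.56 and 2.85). Brachyury (T), a T-box factor of the primitive streak, fell in WT by 1.58 and rose in C48S by 2.56, from 13 counts over the C48S group before RA to 92 after it.

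Trophoblast genes were split, 6 of 15 being called higher and 5 lower at a median interaction of 0.0072. The keratins Krt8 and Krt18 of simple epithelia rose less in C48S. Krt8 had undifferentiated levels of 2.31, 3.36 and 2.28 CPM for WT against 9.67, 13.5 and 11.7 CPM for C48S. By day 2 the readings were 164, 156 and 156 CPM (WT) and 91.4, 89.2 and 81.9 CPM (C48S). C48S was above WT at the start and below it at the end, without overlap, and the rise was 5.87 in WT and 2.92 in C48S (interaction -2.95 ± 0.17, adjusted p = 3.73e-16). Its partner Krt18 rose by 5.97 and by 3.92. Peg10, an imprinted retrotransposon-derived gene of the placenta, went from a mean of 77.7 to 8572 CPM in WT and from 198 to 5650.0 CPM in C48S.

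**Figure D4:**
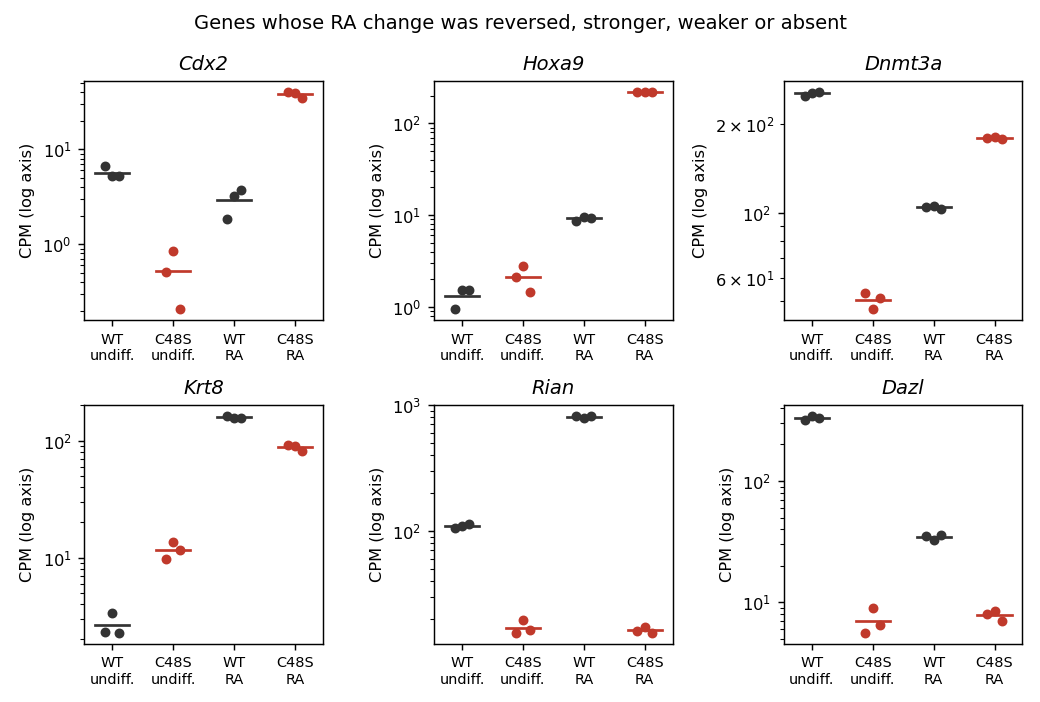
CPM of 6 genes in each library on a log axis, with points for libraries and lines for group means. Cdx2 and Dnmt3a turned over between the lines, Hoxa9 reached 217 to 220 CPM in C48S against 8.71 to 9.61 CPM in WT, Krt8 rose less in C48S, and Rian (rise) and Dazl (fall) changed in WT with no called change in C48S.

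Endoderm genes were called for 11 of 18 (7 higher and 4 lower), with 7 stronger changes. Those named here were all called higher. Foxa1, a pioneer factor of endoderm, rose by 3.15 in WT and by 5.21 in C48S from low starts. Of the laminin genes of the basement membrane, Lama1 was a stronger rise (0.49 and 1.72) to end levels of 82.4 and 74.9 CPM. Lamc1 was reversed, with a fall of 0.83 in WT and a rise of 0.16 in C48S. Col4a1 rose from 38.9 to 104.2 CPM in WT and from 39.1 to 173 CPM in C48S.

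Neuroectoderm genes had a median RA change of 2.76 in WT and 1.53 in C48S, and of 15 tested 4 were called higher and 5 lower. Dll1, a Notch ligand, started from 0.94, 1.76 and 1.52 CPM (WT) and 4.24, 2.98 and 4.55 CPM (C48S). The RA libraries held 10.9, 10.3 and 10.3 CPM (WT) and 4.30, 4.86 and 4.91 CPM (C48S). It rose by 2.86 in WT, while its C48S change of 0.25 was not called, and C48S crossed from above WT to below it. Irx3, an Iroquois factor, rose by 3.64 and by 1.53. The proneural factor Neurog1 was a weaker fall, from 6.94 to 0.45 CPM in WT and from 27.5 to 11.8 CPM in C48S, as was Olig2 (-5.29 and -2.21).

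Of 11 mesoderm genes, 4 were called, with brachyury's reversal the one called higher. Kdr, a VEGF receptor, had a WT change of 0.25 that was not called and fell by 1.73 in C48S, where it ended at 27 counts over the group. Snai1, a repressor of epithelial genes, rose by 1.45 in WT, and its C48S change of 0.17 was not called. Foxf1 was a weaker rise (interaction -1.30, adjusted p = 0.028), a call lost without WT undifferentiated replicate 2 (-0.92, 0.146), C48S undifferentiated replicate 2 (-1.22, 0.0649) or WT RA replicate 2 (-1.20, 0.056). The remaining 7 (Mixl1, Tbx6, Hand2, Meox1, Isl1, Twist1 and Tbx1) had interactions from -0.52 for Tbx1 to 1.30 for Hand2, with adjusted p of at least 0.22. Of 12 genes of the epithelial-mesenchymal list 9 were called, 5 higher and 4 lower, and those named here were all called higher. Epcam, an epithelial adhesion molecule, fell by 1.16 in WT and rose by 0.25 in C48S. Cdh2 (N-cadherin) rose by 0.97 and by 2.86. Ocln, of tight junctions, had a WT change of 0.02 that was not called and rose by 1.16 in C48S from a lower start (11.1 against 23.4 CPM) to an end of 24.9 CPM, where WT was at 23.7 CPM. Zeb1, an epithelial repressor, fell by 1.66 and by 0.53.

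Germ cell and meiosis genes had a median difference of C48S from WT of -1.17 before RA and 0.14 after it, and 12 of 17 were called higher in the interaction and 1 lower, with a median of 1.27 against 0.02 over all genes. Dazl, a germ cell regulator of translation, stood at 315, 346 and 329 CPM (WT) and 5.60, 8.95 and 6.52 CPM (C48S) in undifferentiated cells. With RA the WT libraries stood at 35.4, 32.9 and 35.6 CPM and the C48S libraries at 7.99, 8.51 and 6.97 CPM. The WT libraries were above those of C48S in both states. It fell by 3.26 in WT, and its C48S change was absent (0.17, interval -0.11 to 0.45). Brdt, a testis bromodomain protein, converged: it went from 35.8 to 15.9 CPM in WT and from 2.54 to 15.3 CPM in C48S. Stk31 fell by 0.61 in WT and rose by 1.27 in C48S. Tuba3a, a testis tubulin, fell by 2.40 and rose by 0.69, but it has a near-identical copy (Tuba3b), so its counts are uncertain.

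Two-cell-like genes had lower median levels in C48S in both states, and few interactions were called in any fit. Of 15 tested, 0 were called in edgeR, while 3 had an unadjusted p under 0.05 (1 higher and 2 lower) and DESeq2 called 2 lower, Usp17la and Usp17ld (-2.11 and -2.53). Without C48S undifferentiated replicate 3 edgeR called Usp17ld (-3.04) and Tmem92 (1.96), and without some other single libraries it called Usp17la (-2.64 to -1.89) or these. The median difference between the lines was -2.58 before and -2.86 after RA, and the median RA change was 5.24 in WT and 4.63 in C48S. Zscan4d, a gene of the two-cell embryo, went from 3.15 to 109 CPM in WT and from 0.32 to 18.1 CPM in C48S. In 11 of the 15 a group held under 10 counts, and the Zscan4, Usp17l and Tcstv families consist of near-identical copies, so their counts are uncertain.

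The noncoding RNAs of the imprinted Dlk1-Dio3 locus changed in WT alone. Rian began at 105, 109 and 113 CPM in the WT libraries and 15.5, 19.5 and 16.2 CPM in the C48S libraries. Its levels at the end were 810.0, 790.1 and 822.1 CPM for WT against 16.1, 17.4 and 15.5 CPM for C48S. It rose by 2.89 in WT, and its C48S change was absent (-0.06, interval -0.23 to 0.11), with an interaction of -2.95 ± 0.10 (adjusted p = 1.65e-22). Meg3 of the same locus rose by 2.89 in WT, and its C48S change was absent as well (-0.14). The locus' Dlk1, a secreted-ligand gene expressed from the other parental allele and named here after its values were seen, was a stronger rise (4.17 in WT and 4.82 in C48S). H19, an imprinted noncoding RNA also chosen after its values were seen, rose from 12.1 to 6727 CPM in WT and from 7.48 to 342 CPM in C48S. Plagl1, a zinc finger gene, fell by 1.28 in WT and rose by 0.21 in C48S. Of the 25 imprinted genes 6 were called higher and 11 lower, with medians of 2.16 in WT and 1.57 in C48S.

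Targets of ERK, the kinase that the MEK inhibitor silences, were called for 12 of 16 (5 higher and 7 lower). Etv5, an ETS factor, went from 779, 799 and 774 CPM to 35.9, 33.4 and 31.0 CPM in WT. In C48S it went from 687, 657 and 593 CPM to 175, 171 and 175 CPM, above WT in every library (interaction 2.66 ± 0.079, adjusted p = 3.15e-24). Spry2, a feedback inhibitor, fell by 3.69 and by 0.96. Etv4 behaved otherwise. It had undifferentiated levels of 3.99, 4.95 and 5.10 CPM for WT against 101, 92.9 and 94.8 CPM for C48S. By day 2 the readings were 8.91, 11.2 and 11.1 CPM (WT) and 93.1, 85.0 and 88.8 CPM (C48S). It rose by 1.15 in WT from that low start, and its C48S change was absent (-0.11).

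Wnt targets, on which the GSK3 inhibitor acts, were called higher for 9 of 13 and lower for 1, with medians of -0.38 in WT and 0.48 in C48S. Notum, a secreted Wnt inhibitor, went from 134 to 6.17 CPM in WT and from 62.3 to 10.7 CPM in C48S, and Lef1 fell by 1.91 and by 0.55. Of 12 targets of LIF and STAT3, 10 were called (6 higher and 4 lower), with medians of -1.31 and -1.65. Pim1, a kinase, started from 263, 263 and 248 CPM (WT) and 128, 125 and 134 CPM (C48S), and at 180 to 186 CPM and 218 to 236 CPM after it. It fell by 0.50 in WT and rose by 0.82 in C48S. Tfcp2l1 fell by 3.91 and by 2.94.

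Redox genes bear on the series title, which names the redox sensitivity of Oct4. Of 23 genes of the oxidative stress and NRF2 list, 11 were called higher and 2 lower (56.5% called), and 10 were weaker changes. Medians were -0.81 in WT and -0.69 in C48S. Prdx6, a peroxiredoxin, stood at 514, 516 and 497 CPM (WT) and 215, 213 and 232 CPM (C48S) in undifferentiated cells. The RA libraries held 124 to 131 CPM (WT) and 126 to 132 CPM (C48S), so the lines converged (-2.00 and -0.78, interaction 1.22 ± 0.069). Gpx4, the peroxidase of lipid hydroperoxides, fell by 1.42 and by 0.34. Srxn1, sulfiredoxin, fell by 0.60 in WT and rose by 0.78 in C48S. Gsr, glutathione reductase, fell by 2.89 and by 2.04 from a higher start in C48S, and in CPM its difference of differences was -55.1, a larger loss in C48S. Its start difference was 0.56, and it lies on chromosome 8, where the median start difference was 0.52.

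Nuclear genes of oxidative phosphorylation had a median change of -0.52 in WT and -0.59 in C48S, and 3 of 19 were called (15.8%, against 39.4% of all genes). Atp5b and Cox5a were weaker falls with interactions of 0.26 and 0.36. The 16 not called ran from -0.37 for Ndufv1 (adjusted p = 0.053) to 0.23 for Cycs (adjusted p = 0.076), and Ndufv1 passed the test in other fits, DESeq2 among them (-0.39). Without C48S undifferentiated replicate 3 the list held 7 calls, 4 higher and 3 lower.

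Heat shock and unfolded protein genes were called for 11 of 15, with 6 higher and 5 lower. Hspa5, the chaperone of the endoplasmic reticulum, began at 553, 563 and 553 CPM in the WT libraries and 362, 359 and 457 CPM in the C48S libraries. With RA the WT libraries stood at 238, 232 and 226 CPM and the C48S libraries at 415, 424 and 383 CPM. It fell by 1.26 in WT, and its C48S change of 0.05 was not called. Xbp1, a factor of the unfolded protein response, fell by 0.76 in WT and rose by 0.47 in C48S to ends of 66.3 and 63.1 CPM. Hsph1 fell by 2.52 and by 1.74 and Pdia4 by 0.99 and by 0.21.

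Cell cycle genes were called for 15 of 20, with 12 higher, 3 lower and 10 weaker. Ccnd2, a G1 cyclin, went from 34.4 to 37.5 CPM before RA to 84.7 to 89.1 CPM after it in the WT libraries. In C48S it went from 57.0 to 61.4 CPM to 383 to 402 CPM (1.27 and 2.71, interaction 1.44 ± 0.080). Ccnd3 fell by 1.34 in WT, and its C48S change was absent (0.01), with means of 428 and 204 CPM before and 169 and 206 CPM after RA. Mcm2, of the replicative helicase, fell by 1.78 and by 0.91, and Plk1 by 1.14 and by 0.44. Of 15 genes of p53 and its targets, 13 were called and 11 were weaker. Trp53 converged, from 880 and 527 CPM to 271 and 288 CPM in WT and C48S. Its targets Btg2 (1.55 and 0.52) and Perp (2.72 and 1.51) rose less, although in CPM Perp gained 31.6 more in C48S. Aen fell by 0.20 in WT and rose by 0.54 in C48S.

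Of 8 POU genes tested, Pou5f1, Pou3f1, Pou2f2 and Pou6f1 were called higher, and 0 were called lower in edgeR or DESeq2 (1 had an unadjusted p under 0.05). Pou6f1 fell by 1.48 in WT, and its C48S change of -0.01 was not called. Pou2f2 rose by 0.44 and by 1.14 (interaction 0.69, adjusted p = 0.0265), a call lost in DESeq2 (adjusted p = 0.0563). It was also lost without WT undifferentiated replicate 1 (0.55) or 3 (0.63), C48S undifferentiated replicate 3 (0.56), WT RA replicate 1 (0.64) or 3 (0.65), or C48S RA replicate 3 (0.63). Pou2f3 fell in both lines, by 3.33 and 3.14, from 14.8 CPM in WT and 50.5 CPM in C48S, with an interaction of 0.19 that was not called. The interactions of Pou2f1, Pou3f3 and Pou4f1 were -0.20, -0.47 and -0.19 and were not called, although that of Pou2f1 passed without C48S undifferentiated replicate 3 (-0.30) or WT undifferentiated replicate 2 (-0.25).

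Markers of fibroblasts, which can accompany stem cells as feeders, moved with the contrast. Of 15 tested, 9 were called, 1 higher and 8 lower, and the median was 1.11 in WT and -0.36 in C48S. Their summed level was 452.3 to 488.6 CPM in WT and 624.5 to 802.8 CPM in C48S before RA, with replicate 3 highest. After RA it was 488.3 to 505.6 CPM in WT and 603.4 to 615.4 CPM in C48S. Col1a2, a fibrillar collagen chain, had undifferentiated levels of 20.3, 13.7 and 18.7 CPM for WT against 40.2, 39.4 and 50.8 CPM for C48S, and at 30.2 to 32.4 CPM and 15.4 to 16.0 CPM after it. Its change was 0.85 in WT and -1.47 in C48S. Postn fell in C48S from 47 to 5 counts over the group and rose in WT from 9 to 27. Of 8 haematopoietic markers 4 were tested, with sums of 9.52 to 34.18 CPM, and Cd3e, Cd68 and Csf1r were called higher, with 0 lower in edgeR or DESeq2 and 0 at an unadjusted p under 0.05. The part of either cell type in the results was not tested.

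The genes with the largest interaction of each class follow. Among changes in WT alone, Ccnjl, a cyclin-like gene, was at 3.67 to 3.86 CPM in WT and 46.0 to 53.6 CPM in C48S before RA, and at 57.7 to 60.7 CPM and 54.2 to 54.9 CPM after it. WT thus rose to the level that C48S already had. Dusp22, a phosphatase, rose in WT to near the C48S level but stayed 0.31 (log2) apart at the end, without overlap (0.87 to 1.68 and 20.03 to 20.9 CPM before RA, 16.8 to 18.5 and 20.9 to 23.7 CPM after it). Misp, at lower levels, crossed over and ended lower in C48S (a log2 difference of -0.62). The converse held for falls in WT alone. Trim43a, of the tripartite motif family, went from 45.8 to 50.2 CPM before RA to 0.31 to 0.60 CPM after it in WT, and was at 0.41 to 1.28 CPM in C48S before RA. Fgf3, a growth factor, and Nlrp3, an inflammasome sensor, likewise started low in C48S. The C48S starts were 30 (Trim43a), 17 (Fgf3) and 14 (Nlrp3) counts over the group. Their C48S changes were not called but did not meet the rule for absence. The intervals were -0.95 to 0.57, -0.64 to 1.49 and -1.07 to 1.31, so a fall in C48S could have gone unseen. All 6 genes had their larger difference at the start.

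The reversals with the largest interactions either met after RA or crossed over, but not all reversals did. Of the 269 that rose in WT, 73 differed the same way at both levels and 31 at the end alone. Among the 413 that fell in WT these numbered 98 and 64. Cdx2, given above, had the largest interaction and crossed over, with its larger difference at the end. Foxd1, a forkhead factor, started from 1.68, 2.94 and 2.82 CPM (WT) and 61.9, 58.3 and 77.1 CPM (C48S), and the lines met at 3.81 to 4.77 CPM and 3.18 to 4.12 CPM after it (interaction -4.83 ± 0.28, adjusted p = 5.03e-16). Zmat4, a zinc finger gene, also met at the end (interaction -3.99), whereas Adamtsl1, an extracellular matrix protein, crossed over (-4.33 ± 0.27), from 1.34 to 2.06 and 9.31 to 12.1 CPM to 9.01 to 9.77 and 2.62 to 3.57 CPM in WT and C48S. Among falls in WT that were rises in C48S, Aurkc, the meiotic Aurora kinase, started at 28.8 to 31.4 CPM in WT and 0.59 to 1.81 CPM in C48S and ended at 2.54 to 4.56 and 2.53 to 3.88 CPM (4.53 ± 0.34). Crxos, a homeobox gene, fell from 17.7 to 20.03 CPM to 1.20 to 1.86 CPM in WT and rose from 1.07 to 1.97 CPM to 2.15 to 3.996 CPM in C48S (4.54 ± 0.35), so the lines crossed over.

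Among changes in C48S alone, Caskin1, a synaptic scaffold protein, was at 22.0 to 27.7 CPM in WT and 0.75 to 1.19 CPM in C48S before RA and at 21.1 to 25.2 and 13.9 to 15.4 CPM after it. Nxph3 and Lypd6 also rose in C48S alone from low starts. Smarcd3, a subunit of the BAF remodelling complex, was at 4.70 to 5.45 CPM in WT and 30.2 to 39.9 CPM in C48S before RA, and at 4.46 to 6.00 and 4.77 to 5.84 CPM after it. Its WT change was -0.0016 and its C48S change -2.67. Lgals3bp fell in C48S alone as well. Hist1h2br was the 3rd such fall by size, at 9.33, 1.81 and 5.38 CPM in C48S before RA. That spread is wide, near-identical histone copies make its counts uncertain, and its call (interaction -2.39, adjusted p = 0.0197) was lost without replicate 1 or 2 of the WT undifferentiated, WT RA or C48S RA group (-2.44 to -2.27, adjusted p from 0.0538 to 0.0701).

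Stronger rises were led by Hoxa9, Sema6a and Hoxa10. Sema6a, a transmembrane guidance protein, was at 19.7 to 22.2 CPM in WT and 3.41 to 4.84 CPM in C48S before RA and at 38.5 to 39.6 and 110 to 116 CPM after it, so C48S crossed from below WT to above it (interaction 3.74 ± 0.14). Stronger falls were led by Rasgrp2, Lcp1 and Cyp1b1. Cyp1b1, a cytochrome P450, was at 43.1 to 47.0 CPM in WT and 76.5 to 81.1 CPM in C48S before RA, and at 36.3 to 37.7 and 16.3 to 19.98 CPM after it (-1.85 ± 0.11). Rasgrp2 and Lcp1 started higher in C48S. Rasgrp2 stayed higher at the end (0.73), and the end difference of Lcp1 (-0.23) was not called. Weaker rises were led by Gbp2, Fignl2 and Spsb4. Gbp2, an interferon-induced GTPase, reached 48.4 to 53.7 CPM in WT and 12.4 to 15.3 CPM in C48S. Fignl2 rose from 0.65 to 0.94 CPM in WT and from 8.20 to 10.7 CPM in C48S to 38.6 to 40.1 and 47.0 to 51.4 CPM, so its rise was smaller in C48S on the log2 scale but larger by 1.68 in CPM. Weaker falls were led by Mep1b, Aox3 and Fam169b. Mep1b, a membrane metalloprotease, fell from 143 to 152 CPM to 0.68 to 0.83 CPM in WT and from 5.60 to 6.29 CPM to 1.82 to 2.69 CPM in C48S.

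**Figure D5:**
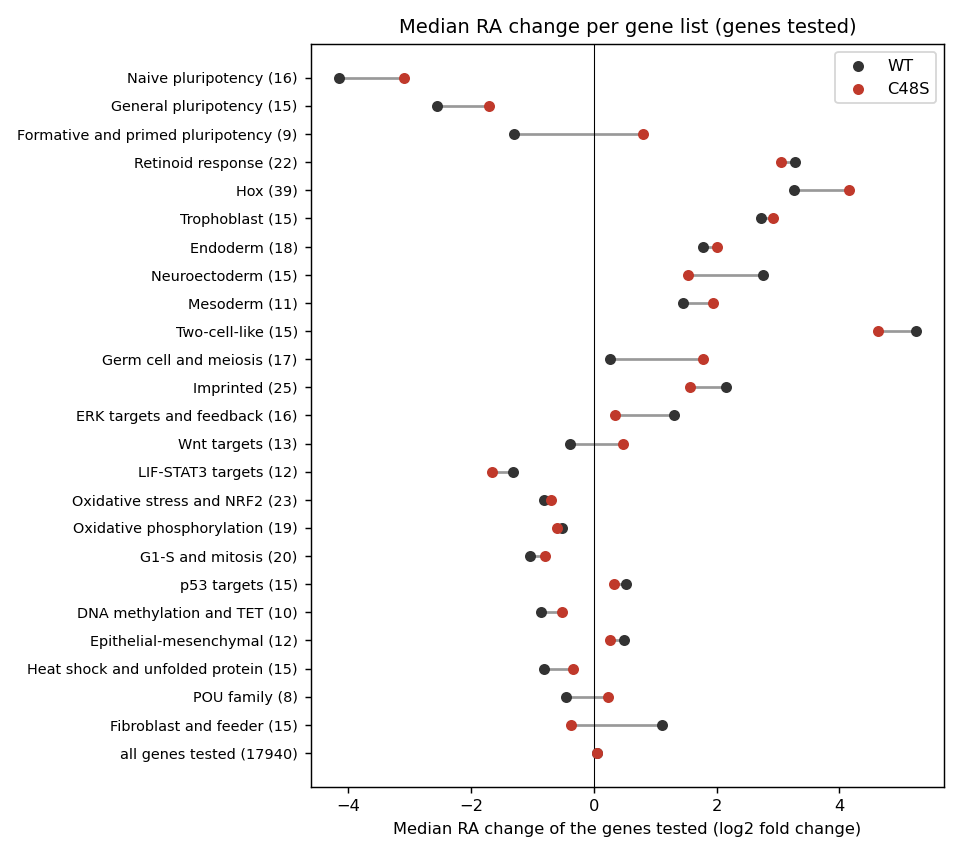
Median RA change (log2 fold change) over the tested genes of each list in WT and C48S, with the number of genes tested in parentheses and the haematopoietic list of 4 genes left out. The formative, germ cell and fibroblast lists show the widest gaps, and over all genes tested the medians are 0.055 and 0.049.

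The scale matters for a minority of the calls. Taken as a difference of differences in mean CPM, 406 of the 7071 called genes (5.74%) had the opposite sign, among them 275 weaker and 127 stronger changes. The lines differed in level along some whole chromosomes. Over protein-coding genes the median difference of C48S from WT on chromosome 6 was 0.58 before and 0.63 after RA, on chromosome 8 it was 0.52 and 0.58, and on chromosome 11 it was -0.53 and -0.48. The median interaction on them was 0.082, 0.048 and 0.042, against 0.044 over 13910 such genes. Levels given above for genes on these chromosomes, among them Nanog, Gsr and Mcm2, were not corrected for this.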

How the data were processed

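Per the labels' protocols, the 12 libraries were made from total RNA after removal of ribosomal RNA. The deposited values are raw counts of read pairs per gene, made by the authors with featureCounts 1.6.3 (strand option 2, largest overlap) on Ensembl release 104 models of GRCm39, per the file headers. STAR 2.7.9a and DESeq2 are named in the submitters' processing notes. Strand was used, so antisense partners were kept apart. Near-identical copies are uncertain. Symbols matched 94% of 55416 gene identifiers, and biotypes came from GENCODE M21.

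Counts were fitted with edgeR 4.0.16 in R 4.3.3 (filterByExpr with a minimum count of 10, TMM, robust quasi-likelihood, 1 mean per group over 12 libraries, 8 residual degrees of freedom, biological coefficient of variation 0.0549). Contrasts were the interaction, the RA change in each line and the lines' difference in each state. CPM used TMM-scaled totals, which measure abundant genes closely and leave wide error near 1 CPM. On simulated counts for the interaction (17627 genes, 50 changed per fold), 20, 64, 86 and 98% of genes changed 1.25-, 1.5-, 2- and 4-fold were called, and 6.29% of calls were unchanged genes. The simulation gave every gene the same spread and had no outlying library. It changed few genes, all with over 10 counts expected per library in every group, so its rates need not hold for these data.

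The lists and tests were chosen with earlier results of these data known. Genes named were Pou5f1, the 3 largest interactions per class and direction (at least 10 counts in each group and 5 CPM in the highest) and up to 4 members per list by adjusted p, or all members where at most 5 were called, and others are named as chosen later. A few of these genes are not reported here. Alternatives tried were DESeq2 1.42.0, RLE scaling, no or stricter filtering of low counts, a fold of 1.5 as the null, adjusted p under 0.01, a larger change minimum, left-out chromosomes, the replicate block and each library left out. No library was excluded. Counts of list members without C48S undifferentiated replicate 3 and by DESeq2 were added after seeing the data.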

Additional observations from a re-analysis of the deposited data

Results flagged for a closer look

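The RA changes of the lines differed, by edgeR's quasi-likelihood test of the interaction, for 7071 genes, and every gene reported above with a called interaction is one of them. The reversals with the largest differences were Cdx2 (7.10), Crxos (4.54) and Aurkc (4.53), which fell in WT and rose in C48S, and Foxd1 (-4.83), Adamtsl1 (-4.33) and Zmat4 (-3.99), which rose in WT and fell in C48S. In Cdx2, Crxos and Adamtsl1 the lines changed order between the states, and in Foxd1, Zmat4 and Aurkc they met after RA. Genes chosen by the naming rule were followed with each library left out. Other genes were not checked one by one for a single outlying library within their groups of 3. Over all genes C48S undifferentiated replicate 3 stood apart, and without it 7771 genes were called.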

How the results depend on the processing

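No called interaction of a gene chosen by the naming rule changed direction under any alternative fit on the log2 scale. Nor did the median signed interaction of rises or of falls. The class medians were not computed again in those fits. Some uncalled interactions changed sign, most of them near 0 or of two-cell-like genes. The median over all genes went from 0.02 to -0.00065 with RLE scaling, and in CPM 406 called genes took the opposite sign. When the null was a change of up to 1.5-fold, 2257 genes were called (1366 higher and 891 lower). At an adjusted p under 0.01 the stronger class held 550 genes, the crossed-over genes numbered 842 and those differing the same way in both states 1191. Without a filter on low counts 57 genes had neither change called. Without chromosomes 6, 8, 11 and Y, the genes differing the same way in both states numbered 1214 of 5703 called. With a mean change of at least 2 the falling genes had a median signed interaction of -1.25. The other counts stayed within 1.5 times: DESeq2 called 6478 and RLE scaling 7015.

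With 1 library left out, the calls ranged from 6420 (without WT undifferentiated replicate 2) to 7771 (without C48S undifferentiated replicate 3), the higher ones from 3521 to 4367 and the lower ones from 2836 to 3404. The classes ranged from 2804 to 3523 (weaker), 786 to 1093 (stronger), 619 to 759 (reversed), 1248 to 1496 (WT alone, 871 to 1006 of them absent), 798 to 911 (C48S alone) and 24 to 46 (neither). By level the ranges were 1350 to 1633 (end only), 2021 to 2327 (start only), 1104 to 1489 (crossed over), 1600 to 2334 (same way), 114 to 139 (neither level) and 2405 to 3000 (end larger). The median signed interaction ranged from -0.384 to -0.276 for rises, lowest without WT undifferentiated replicate 3, and from -0.513 to -0.442 for falls.

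Same-numbered libraries did not deviate together (correlations of deviations from -0.0529 to 0.029 over 18 pairs, and 2 of 12 libraries correlated best with their own number). With the replicate block 6938 genes were called (3921 higher and 3017 lower), 163 of the 164 genes the naming rule chose kept their side of the threshold, and Ndufv1 passed it (adjusted p = 0.029). Named calls lost in some fits were those of Pou2f2, Hist1h2br and Foxf1. Genes near 1 CPM rest on about 10 counts per library, so small interactions among them were not detectable.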
